A study of Homo sapiens with 4 samples.

Results

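ABC transporter genes are the genes whose symbol places them in subfamilies A to G of the ATP-binding cassette family (ABCA1, ABCB1 and so on, a letter from A to G followed by a number). Of the 23228 gene rows of the deposited count tables, 46 carry such a symbol, with 12 in subfamily A, 9 in B, 12 in C, 4 in D, 1 in E, 3 in F and 5 in G. The symbol pattern leaves out pseudogenes with a final P and members known by other names, such as the peptide transporter genes TAP1 and TAP2. It takes in ABCC13, which the annotation gives both as a pseudogene and as a noncoding RNA gene. The RNA came from Daoy, a human medulloblastoma line, carrying a lentiviral control shRNA (n = 2 libraries) or a lentiviral shRNA against PELP1 (n = 2 libraries), a scaffold protein and nuclear receptor coregulator. Expression of both shRNAs was stable, and whether the cells were pools or clones is not stated. Whether the duplicates are separate cultures is not stated, so p-values cover only library-to-library spread, possibly technical.

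ABC proteins bind ATP in paired nucleotide-binding domains and use its hydrolysis, in most members, to move a substrate across a membrane. Those of the A and G subfamilies mostly carry lipids, those of B and C include the pumps that made the family known for multidrug resistance of tumours, and those of D work in peroxisomes and lysosomes. The E and F members have no membrane domain and act on ribosomes. In the brain ABC pumps guard the blood-brain barrier, and ABCA1 and ABCG1 load cholesterol onto lipoproteins under the control of the liver X receptors (LXR).

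Each library held from 24052542 to 29221640 counts in genes, of which the 46 ABC genes took 0.148% and 0.151% with the control shRNA and 0.157% and 0.154% with the PELP1 shRNA. The targeted gene PELP1 stood at 168.2 and 185.2 CPM (library-scaled read counts, here with TMM factors) with the control shRNA and at 55.56 and 49.69 CPM with the PELP1 shRNA, 29.8% of control (log2 fold change −1.75 ± 0.05, SE, FDR = 1.54e-33). Of the granule-lineage and SHH medulloblastoma markers, 5 of 9 had at least 1 CPM, namely ZIC1, ZIC2, PAX6, GLI2 and SFRP1, while ATOH1, NEUROD1 and BARHL1 had at most 6 counts in either control library. Of the 6 tested, 3 were higher (ZIC2, PAX6 and GLI1) and 1, GLI2, was lower with the PELP1 shRNA. Neuronal, neural progenitor, mesenchymal and endothelial marker lists also each had members that were higher and members that were lower at an FDR of 0.05. Such calls were common, at 58.1% of the 14972 genes tested (28.6% higher, 29.5% lower), and the marker counts are to be read beside that share. Summed neuronal markers were at 157 to 174 CPM in control and 97.0 to 97.4 CPM in PELP1 shRNA libraries, with 2 of 4 tested members higher (SYP and SNAP25) and 1, TUBB3, lower. Summed neural progenitor markers were at 5500 to 5640 CPM in control and 3940 CPM in both PELP1 shRNA libraries, nearly all of it VIM, with 2 of 5 lower (VIM and SOX2) and 2 higher (MSI1 and PROM1). Summed fibroblast or mesenchymal markers were at 5040 to 5360 and 3920 to 4210 CPM, with 5 of 6 lower, COL1A2 from a mean of 1494 to 131.9 CPM, and 1, the most abundant, COL1A1, higher. Summed endothelial markers were at 26.7 to 27.5 and 9.03 to 9.08 CPM, most of it TEK in control cells (23.59 CPM, against 3.28 CPM), with 2 of 5 lower (TEK and CDH5) and 2 higher (PECAM1 and VWF). Summed myeloid or lymphoid markers were at 59.3 to 61.9 and 59.5 to 60.4 CPM. Nearly all of this was CD68, at means of 58.12 CPM in control and 57.81 CPM in PELP1 shRNA libraries. Of the 3 tested members, 1, LYZ, was called lower (FDR = 0.0422), though its groups overlapped. It had 39 and 11 counts in the control and 16 and 7 in the PELP1 shRNA libraries, more in replicate 1 of both. PTPRC, CD3E and CD79A had too few counts to be tested. Of 5 astrocyte markers, 2 were higher (SLC1A3 and ALDH1L1), at summed levels of 23.0 to 53.2 and 28.3 to 47.8 CPM. The most abundant of them, GFAP, did not follow the groups, with 869 and 304 counts in the control and 840 and 286 in the PELP1 shRNA libraries, high in replicate 1 of both. The part of these markers in the results was not tested. In bulk RNA, fewer expressing cells and less RNA per cell cannot be told apart.

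Sequence just upstream of 4 members that changed is shown because 3 of them (ABCA1, ABCA7 and ABCB9) were lipid or lysosomal transporter genes that rose and the other (ABCA13) fell by the most. Each window runs from 250 bases before to 50 bases after the RefSeq gene start (build GRCh38.p14, read 5′ to 3′ on the gene's strand). They lie at chr9:104928106-104928405 (minus strand), chr19:1039857-1040156 (plus strand), chr12:122966414-122966713 (minus strand) and chr7:48171208-48171507 (plus strand). Capitals mark the GC box GGGCGG on either strand, the E-box CACGTG and, in ABCA1, a direct repeat of the hexamers AGGTTA and CGGTCA 4 bases apart (read on the opposite strand), the known LXR element of this promoter.

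ABCA1: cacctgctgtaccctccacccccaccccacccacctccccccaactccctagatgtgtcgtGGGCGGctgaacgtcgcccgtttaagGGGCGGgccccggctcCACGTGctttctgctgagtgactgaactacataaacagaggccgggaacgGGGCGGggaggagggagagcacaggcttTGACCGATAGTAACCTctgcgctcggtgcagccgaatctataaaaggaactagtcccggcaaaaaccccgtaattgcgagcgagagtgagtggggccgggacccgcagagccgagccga

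ABCA7: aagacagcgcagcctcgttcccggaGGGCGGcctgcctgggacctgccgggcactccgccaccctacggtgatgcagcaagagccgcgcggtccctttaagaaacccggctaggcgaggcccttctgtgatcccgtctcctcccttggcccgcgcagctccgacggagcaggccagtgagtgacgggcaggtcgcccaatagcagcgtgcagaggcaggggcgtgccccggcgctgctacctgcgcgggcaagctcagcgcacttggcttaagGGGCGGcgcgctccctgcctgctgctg

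ABCB9: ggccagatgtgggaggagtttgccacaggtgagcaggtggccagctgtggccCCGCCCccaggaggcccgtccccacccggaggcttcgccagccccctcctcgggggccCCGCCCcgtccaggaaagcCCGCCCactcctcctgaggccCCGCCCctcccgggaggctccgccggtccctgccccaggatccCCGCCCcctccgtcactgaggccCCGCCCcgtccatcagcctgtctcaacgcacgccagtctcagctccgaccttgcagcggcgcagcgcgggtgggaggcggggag

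ABCA13: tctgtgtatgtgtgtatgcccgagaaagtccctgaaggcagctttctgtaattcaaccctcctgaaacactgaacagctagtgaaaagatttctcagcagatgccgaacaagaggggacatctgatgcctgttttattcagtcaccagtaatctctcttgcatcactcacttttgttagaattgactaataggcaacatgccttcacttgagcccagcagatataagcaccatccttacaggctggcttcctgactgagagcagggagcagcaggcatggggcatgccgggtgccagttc

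The ABCA1 window holds the direct repeat at bases 182 to 197, an E-box at bases 104 to 109 and 3 GC boxes. The direct repeat is the ABCA1 gene's own sequence, and 1 of the 27305 promoter windows of this length holds it. ABCB9 holds 6 GC boxes, all on the opposite strand, in a window of 75.3% G and C, and ABCA7 holds 2 in a window of 70.0%. ABCA13 holds none of these motifs in a window of 48.3% G and C. Of 46 members, 35 had a window. A GC box was found in 18 of these 35 (51.4%) and in 44.6% of all windows, an E-box in 4 (11.4%, against 7.43%), the antioxidant response element core TGACNNNGC in 7 (20%, against 13.6%) and the kappa-B site of NF-κB in 5 (14.3%, against 10.8%). The sterol regulatory element TCACNCCAC was in 0 of 35 and in 1.15% of all windows. By direction, a GC box was in 5 of the 7 windows of members called higher. It was also in 3 of the 6 windows of members called lower (ABCF1, ABCD4 and ABCA5). These matches, searched on both strands, are descriptions of letters and not binding sites. GC boxes can overlap one another and other motifs.

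Of the 46 genes, 30 had enough counts to be tested, and 10 of these rose and 7 fell with the PELP1 shRNA at a false discovery rate (FDR) of 0.05 (edgeR quasi-likelihood test). That is 56.7% of the tested members, against 58.1% of the 14972 genes tested (28.6% higher, 29.5% lower), so the share of changed ABC genes was near the background. The median log2 fold change (PELP1 shRNA over control shRNA throughout) was 0.08 over the ABC genes and 0.00 over all genes, and the median absolute change was 0.27 and 0.26. Most of the differences were small, with 11 of the 17 below 1.5-fold. Tested against a 1.5-fold change, 4 members were higher, ABCG1, ABCA7 and ABCB9 among them, and ABCA13 was lower, 5 of 30 tested members, against 9.63% of all genes (4.74% higher and 4.90% lower). The balance of directions depended on scaling. With TMM 58.8% of the ABC calls were higher, against 49.1% of the calls over all genes. The shares were 73.3% (11 higher, 4 lower) against 57.9% with upper-quartile factors. With library size alone, which moved the median of all genes from 0.00 to 0.09, they were 80% (12 higher, 3 lower) against 63.2%.

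**Figure D1:**
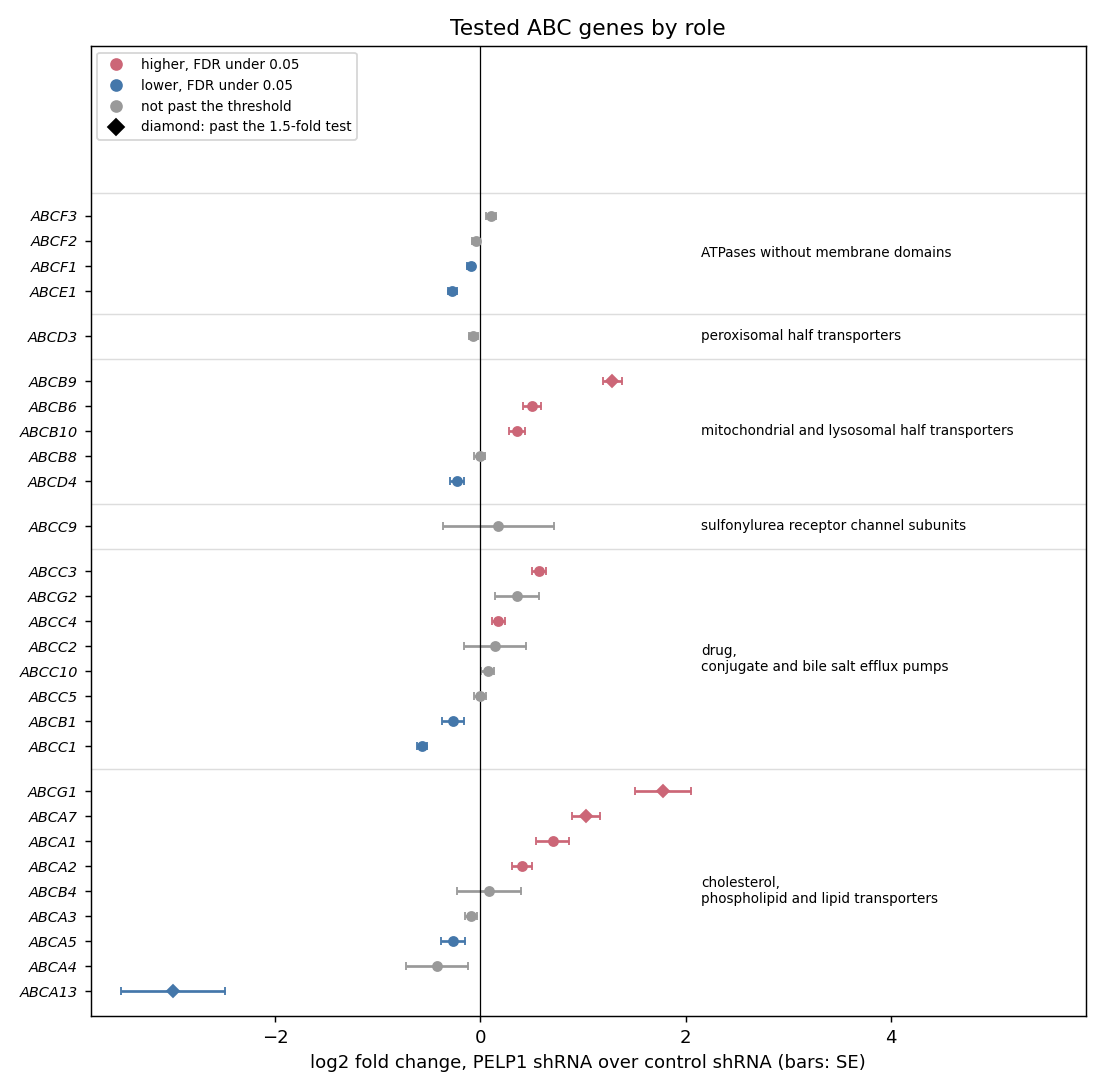
Log2 fold changes of 28 tested ABC genes (x axis, PELP1 shRNA over control shRNA, bars are SE) grouped by role. Diamonds mark plotted genes past the test against a 1.5-fold change, with ABCG1, ABCA7 and ABCB9 to the right of 0 and ABCA13 to the left.

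Per kilobase of exon, the most abundant members in control cells were not membrane transporters. ABCF1, which works in translation initiation, stood at 75.0 RPKM and ABCF2 at 52.2 RPKM, followed by the ribosome-recycling factor ABCE1 (20.2 RPKM), the peroxisomal transporter ABCD3 (18.6 RPKM), ABCF3 (15.0 RPKM) and the multidrug resistance protein gene ABCC1 (14.9 RPKM). ABCC1 fell to 10.1 RPKM with the PELP1 shRNA. ABCF2 shares 1914 exonic bases with a readthrough gene on the same strand, so its level is uncertain. The lipid exporters ABCG1 and ABCA1 were at 0.123 and 0.283 RPKM in control cells and 0.424 and 0.463 RPKM with the PELP1 shRNA.

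Lipid carriers made up 9 of the tested genes. Of these 4 rose and 2 fell (median log2 fold change 0.08), 66.7% against 58.1% of all genes tested. ABCG1, which exports cholesterol to lipoprotein particles, had 0.727 and 0.777 CPM in the control and 2.65 and 2.54 CPM in the PELP1 shRNA libraries. Both PELP1 shRNA libraries were above both controls, 3.45-fold by counts (37 counts over both controls and 150 over the others; 95% counting interval 2.39 to 5.08). Its log2 fold change was 1.78 ± 0.27 (SE, FDR = 6.17e-08), and 1.73 to 1.87 over the alternatives other than the assumed variations. The gene ABCG1 is on hg19 chromosome 21 (43619799 to 43717354, plus strand).

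ABCA1, the exporter that lipidates apolipoprotein A-I and is mutated in Tangier disease, stood at 3.12 and 3.30 CPM in control and 5.13 and 5.37 CPM in PELP1 shRNA libraries. The groups did not overlap, and the log2 fold change was 0.71 ± 0.16 (SE, FDR = 0.000124), but it did not pass the test against 1.5-fold (adjusted p = 0.559). The gene ABCA1 is on hg19 chromosome 9 (107543287 to 107690436, minus strand). ABCA7, a phospholipid transporter linked to Alzheimer disease risk, had 4.45 and 4.20 CPM in control and 9.51 and 8.05 CPM in PELP1 shRNA libraries (log2 fold change 1.03 ± 0.14, SE, FDR = 1.61e-09). ABCA2, a lysosomal transporter of myelin-forming cells, had 16.3 and 19.8 CPM against 26.4 and 21.5 CPM. Its higher control library was close to its lower PELP1 shRNA library, and the change of 0.41 ± 0.09 (SE, FDR = 0.000315) fell to 0.25 (adjusted p = 0.0558) without PELP1 shRNA replicate 1.

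ABCA13, the longest member of the A subfamily, was the most changed ABC gene. Its counts were 27 and 22 with the control shRNA and 5 and 2 with the PELP1 shRNA, 1.15 and 0.855 CPM against 0.166 and 0.0725 CPM. Its level was 8.23-fold lower (95% counting interval 3.71 to 21.5), with a log2 fold change of −3.0 ± 0.51 (SE, FDR = 7.51e-07). It passed the low-count filter through its control libraries, so the size of the change and its being tested are linked. The gene ABCA13 is on hg19 chromosome 7 (48211055 to 48687093, plus strand).

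ABCA5, a lysosomal lipid transporter, had 8.81 and 8.51 CPM against 7.35 and 7.0 CPM (log2 fold change −0.27 ± 0.12, SE, FDR = 0.0481), a call lost in 12 of 12 alternatives (adjusted p from 0.059 to 0.781). It shares 318 exonic bases with ABCA10. ABCA3, the surfactant lipid transporter of the lung, had 56.3 and 62.4 against 57.0 and 54.5 CPM, with overlapping groups (−0.09, FDR = 0.173). It passed as lower without control shRNA replicate 1 (−0.16, adjusted p = 0.0318) and stood at −0.01 (adjusted p = 0.898) without control shRNA replicate 2. The retinal transporter gene ABCA4 (−0.42, FDR = 0.225) and ABCB4, which moves phosphatidylcholine into bile (0.08, FDR = 0.835), were near 1 CPM and did not pass.

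**Figure D2:**
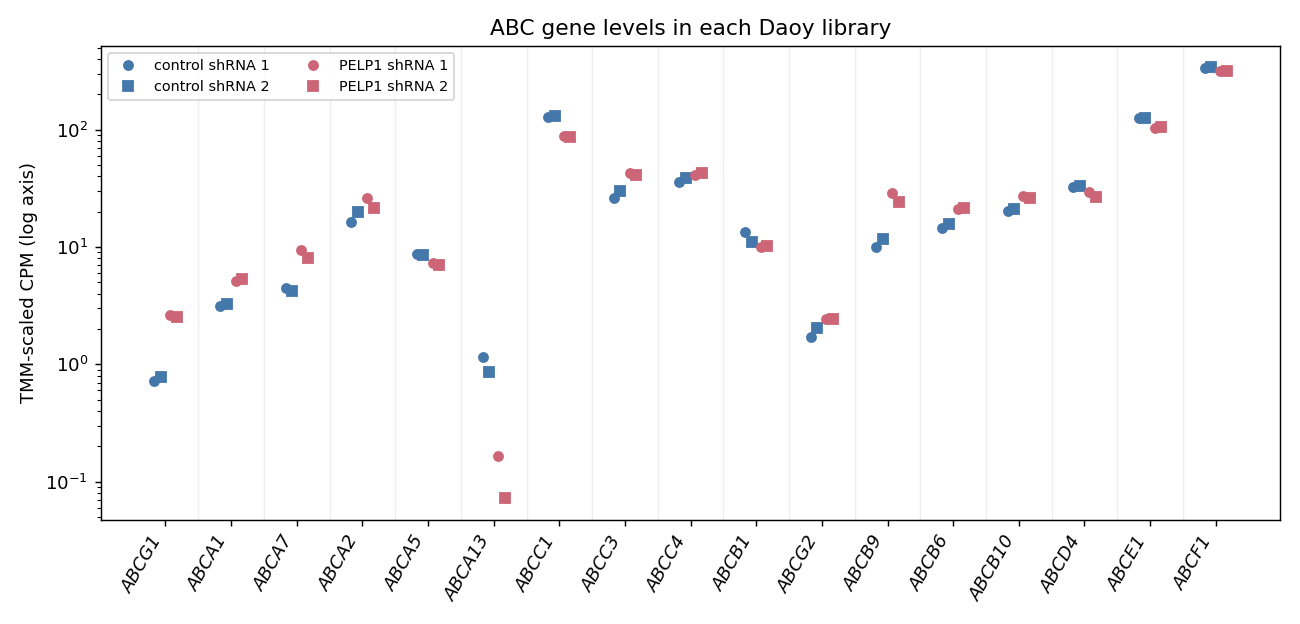
TMM-scaled CPM (y axis, log scale) of 17 ABC genes in each library, with control shRNA in blue and PELP1 shRNA in red, and circles for replicate 1 and squares for replicate 2. ABCG1, ABCA7 and ABCB9 sit higher with the PELP1 shRNA and ABCA13 and ABCC1 lower.

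Of 8 tested drug, conjugate and bile salt efflux pumps, 2 rose and 2 fell (50%, against 58.1% of all genes tested), with a median of 0.11 and changes from −0.57 to 0.58. ABCC1, the glutathione-dependent pump MRP1, was the most abundant of them and fell. Its levels were 128 and 132 CPM in the control and 88.8 and 87.0 CPM in the PELP1 shRNA libraries, a fall to 67.4% of control (log2 fold change −0.57 ± 0.05, SE, FDR = 3.68e-17). The control libraries lay well above the others, and the change was −0.59 to −0.48 over the alternatives other than the assumed variations. The ABCC1 call was lost with an assumed biological variation of 20% (adjusted p = 0.281). The gene ABCC1 is on hg19 chromosome 16 (16042995 to 16237114, plus strand).

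Its relative ABCC3, an exporter of glucuronides and bile salts, rose from 26.4 and 30 CPM to 42.7 and 41.5 CPM (log2 fold change 0.58 ± 0.07, SE, FDR = 6.69e-11). ABCC4, which exports cyclic nucleotides and prostaglandins, had 35.8 and 38.7 against 41.2 and 42.9 CPM (0.18 ± 0.06, SE, FDR = 0.0164). That call was lost with DESeq2 (adjusted p = 0.114) and without control shRNA replicate 1 (0.186) or PELP1 shRNA replicate 2 (0.139). An assumed biological variation of 10% (adjusted p = 0.412) or 20% (0.887) also lost the ABCC4 call. ABCC5 (−0.00, FDR = 0.967), ABCC10 (0.07, FDR = 0.377) and ABCC2 (0.14, FDR = 0.707) did not pass, and ABCC10 was called higher with library size alone (0.16, adjusted p = 0.0329).

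ABCB1, the gene of P-glycoprotein, had 13.5 and 11.0 CPM in the control and 9.94 and 10.3 CPM in the PELP1 shRNA libraries. The groups did not overlap, with control replicate 1 the highest, and the log2 fold change was −0.27 ± 0.11 (SE, FDR = 0.0268). Without control shRNA replicate 1 it was −0.12 (adjusted p = 0.472), and the call was also lost under DESeq2 (adjusted p = 0.2), upper-quartile scaling (0.075) and scaling by library size (0.139), and without PELP1 shRNA replicate 1 (0.123) or 2 (0.0552). An assumed biological variation of 10% (adjusted p = 0.223) or 20% (0.771) lost the ABCB1 call too. ABCG2, the breast cancer resistance protein gene, stood at 1.71 and 2.06 against 2.42 and 2.43 CPM, and its change of 0.36 ± 0.22 (SE) did not pass (FDR = 0.16). On hg19, ABCB1 occupies chromosome 7 (87132333 to 87342639, minus strand) and ABCG2 chromosome 4 (89011302 to 89152780, minus strand).

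Of 6 transporters of mitochondria and lysosomes, 3 were higher and 1 lower (median 0.19), 66.7% against 58.1% of all genes tested. ABCB9, a lysosomal peptide transporter related to TAP1 and TAP2, had 10.1 and 11.7 CPM in the control and 28.6 and 24.4 CPM in the PELP1 shRNA libraries, 244% of control (log2 fold change 1.29 ± 0.09, SE, FDR = 5.98e-19). Both PELP1 shRNA libraries were above both controls. The gene ABCB9 is on hg19 chromosome 12 (123405498 to 123466196, minus strand). Antisense genes, ARL6IP4 and OGFOD2 among them, cover 3262 of its 13282 exonic bases. With the strand setting of the counting not stated, reads of these genes cannot be told apart there. OGFOD2 fell by 0.38 (FDR = 0.000272) and ARL6IP4 stood at −0.06 (FDR = 0.322), both looked at after the values of ABCB9 were seen.

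ABCB6, a porphyrin transporter of lysosomes and other membranes, had 14.5 and 15.6 CPM against 21.2 and 21.6 CPM (log2 fold change 0.51 ± 0.09, SE, FDR = 1.05e-06). It shares 2841 of its exonic bases with a readthrough gene on the same strand. ABCB10, which acts in haem synthesis in mitochondria, had 20.4 and 21.2 CPM against 27.2 and 26.0 CPM (0.36 ± 0.08, SE, FDR = 8.2e-05). Its call was lost with an assumed biological variation of 10% (adjusted p = 0.0694) or 20% (0.642). ABCB8, a mitochondrial transporter, stood at −0.01 (FDR = 0.937). ABCD4, the lysosomal cobalamin exporter, was lower at 32.7 and 33.4 against 29.7 and 26.8 CPM (−0.23 ± 0.07, SE, FDR = 0.00508), a call lost with library size alone (adjusted p = 0.0923), DESeq2 (0.0638) and without PELP1 shRNA replicate 2 (0.137).

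ABCD3, the major peroxisomal membrane protein and a fatty acid carrier, was at 146 and 139 against 134 and 137 CPM, and did not pass (−0.07, FDR = 0.161). ABCD2, another peroxisomal fatty acid transporter gene, had 8 and 0 counts with the control shRNA and 7 and 1 with the PELP1 shRNA, too few to be tested. Its counts were high in replicate 1 of both groups, as those of GFAP were, and whether the 2 genes share a source was not tested.

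The ABC ATPases without membrane domains were abundant, with 0 of 4 higher and 2 lower (median −0.07), 50% against 58.1% of all genes tested (28.6% higher and 29.5% lower). Without adjustment edgeR placed 1 of them (ABCF3) past 0.05 in the higher direction, and DESeq2 called 0 higher. ABCE1, which splits ribosomes after translation ends, had 126 and 126 CPM in the control and 104 and 105 CPM in the PELP1 shRNA libraries (log2 fold change −0.27 ± 0.04, SE, FDR = 3.1e-07), with the replicates nearly equal. The ABCE1 call was lost with an assumed biological variation of 10% (adjusted p = 0.152) or 20% (0.756). The gene ABCE1 is on hg19 chromosome 4 (146019440 to 146050676, plus strand). Antisense genes cover 408 of its exonic bases. ABCF1 was at 335 and 339 against 314 and 317 CPM (−0.10 ± 0.04, SE, FDR = 0.0198), a call lost under upper-quartile scaling (adjusted p = 0.318), scaling by library size (−0.01, adjusted p = 0.905), the replicate block (0.0722) and without control shRNA replicate 2 (0.0902) or PELP1 shRNA replicate 1 (0.121) or 2 (0.0726). An assumed biological variation of 10% (adjusted p = 0.677) or 20% (0.952) lost the ABCF1 call as well. ABCF2 (−0.05, FDR = 0.29) did not pass. ABCF3 (0.10, FDR = 0.0683) did not pass either, though it passed as higher under upper-quartile scaling (0.16, adjusted p = 0.00538), scaling by library size (0.19, adjusted p = 0.000516) and the filter of 5 CPM (0.12, adjusted p = 0.0317).

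The sulfonylurea receptor genes, whose products are regulatory subunits of potassium channels, were barely expressed. ABCC9 had 10 and 5 counts in the control and 13 and 7 in the PELP1 shRNA libraries (FDR = 0.801), again with more in replicate 1, and ABCC8 had 0, 1, 1 and 1 counts. ABCC6, an exporter of the liver and kidney, had 0 counts in each control and 10 and 5 with the PELP1 shRNA. Against a floor of 3 counts over the control group, that is at least 4.25-fold higher, for counting error only. ABCC6 has near-identical pseudogene copies that can take its reads, and ABCC6P1 had 1 and 1 counts in the control and 6 and 4 in the PELP1 shRNA libraries. ABCG4, a neural relative of ABCG1, had 1 and 4 counts against 11 and 10, a ratio of 3.57 (95% counting interval 1.31 to 12.1). The ratio for ABCA12, a keratinocyte lipid transporter, rested on 1 and 5 counts in the groups (4.25, 95% counting interval 0.476 to 201).

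In all, 16 members were below the low-count filter, with at most 26 counts over the 4 libraries together. ABCB11, ABCG8 and ABCC13 had 0 counts in every library, which allows up to 3 counts in a library. The remaining members of that set (ABCA6, ABCA8, ABCA9, ABCA10, ABCB5, ABCC11, ABCC12 and ABCG5) had at most 7 counts in any library.

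The peptide transporter genes TAP1 and TAP2, ABC members under other symbols that feed MHC class I molecules, both fell. TAP1 had 76.5 and 74.1 CPM against 55.8 and 55.3 CPM (log2 fold change −0.44 ± 0.05, SE, FDR = 1.26e-10) and TAP2 had 198.9 and 194.0 against 150.5 and 145.9 CPM (−0.41 ± 0.04, SE, FDR = 2.34e-13). The related lysosomal transporter ABCB9 stood at 1.29 in the same libraries.

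Regulators of ABC transcription numbered 17 among the tested genes. Of these 10 rose and 5 fell (median 0.22), 88.2% against 58.1% of all genes tested. SREBF1, a sterol and lipogenic transcription factor gene that is also an LXR target, had 29.98 and 30.6 CPM in the control and 114.7 and 109.8 CPM in the PELP1 shRNA libraries (log2 fold change 1.89 ± 0.06, SE, FDR = 5.52e-39). NR1H3, which encodes LXRα, had 2.78 and 2.88 against 5.76 and 4.57 CPM (0.87 ± 0.17, SE, FDR = 9.49e-06). NR1H2, which encodes the more abundant LXRβ, was slightly lower (−0.18, FDR = 0.00187), as was RXRA, the gene of a retinoid X receptor partner (−0.43, FDR = 1.81e-10). PPARA, a fatty acid receptor gene, rose by 1.01 ± 0.08 (SE, FDR = 5.29e-18) and SREBF2, the cholesterol-synthesis factor gene, by 0.58 ± 0.04 (SE, FDR = 2.47e-19). The antioxidant factor gene NFE2L2, whose product controls several ABCC pumps, stood at 0.22 (FDR = 6.25e-06) and the xenobiotic receptor gene AHR at −0.12 (FDR = 0.0191).

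Of 12 tested LXR targets outside the ABC family, 8 rose and 1 fell, 75% against 58.1% of all genes tested, with a median of 0.64. MYLIP, a ubiquitin ligase that degrades the LDL receptor, had 8.64 and 9.29 CPM in the control and 22.8 and 21.2 CPM in the PELP1 shRNA libraries (1.30 ± 0.10, SE, FDR = 1.22e-18). SCD, the stearoyl-CoA desaturase gene, had 236.6 and 230.9 against 434.9 and 434.5 CPM, and LPCAT3, a phospholipid remodelling enzyme gene, rose by 0.80. SREBF1, SCD and FASN also respond to the sterol-regulated factors themselves, and SREBF1 and NR1H3 stand in both lists. APOE (0.07, FDR = 0.894), a lipid acceptor that is abundant in astrocytes, did not pass, and its replicate 1 libraries (11.0 and 13.0 CPM) were above its replicate 2 libraries (8.94 and 7.65 CPM).

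**Figure D3:**
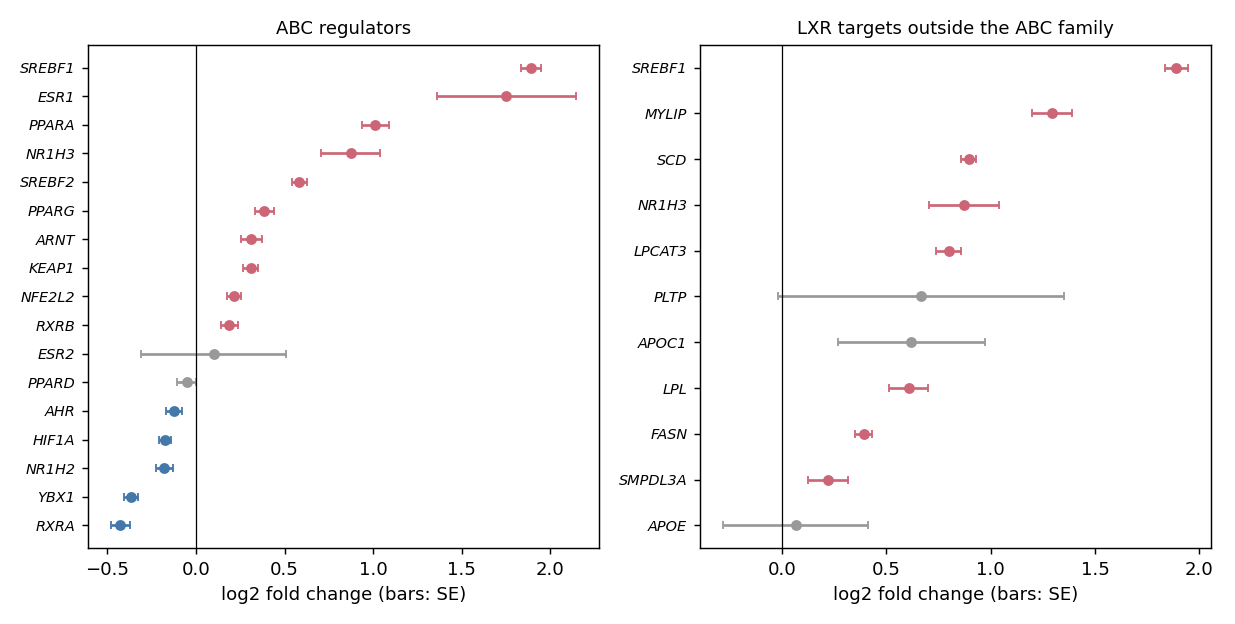
Log2 fold changes (x axis, PELP1 shRNA over control shRNA, bars are SE) of the 17 tested regulators of ABC genes and of 11 LXR targets outside the family, red where higher, blue where lower and grey where not past the threshold. SREBF1 is the highest of both lists, at 1.89.

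Of 24 tested partners of ABC proteins, 7 were higher and 8 lower (median 0.02), 62.5% against 58.1% of all genes tested and so near the background. The haem enzyme gene FECH, which follows ABCB10 in its pathway, rose by 0.38, while the mitochondrial iron importer genes SLC25A37 and SLC25A28 fell by 0.38 and fell by 0.52 on the log2 scale. SNTB2, a syntrophin that anchors ABCA1, fell by 0.36. The ribosome rescue genes PELO (−0.20) and HBS1L (−0.19), whose products act with ABCE1, and the release factor gene GSPT1 (−0.35) were lower, and its partner ETF1 was higher (0.17). These genes are named by role and not by size of change. SLC9A3R1 (0.34) and LMBRD1 (0.32) of the same list were higher and changed by more than PELO, HBS1L and ETF1. Of 14 genes that make or attach glutathione, the co-substrate of the ABCC pumps, 5 rose and 4 fell (median 0.02), 64.3% against 58.1% of all genes tested. GSTM4 rose by 0.46, while MGST1 (−0.43), GSTA4 (−0.44) and GSTO1 (−0.37) were lower.

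**Figure D4:**
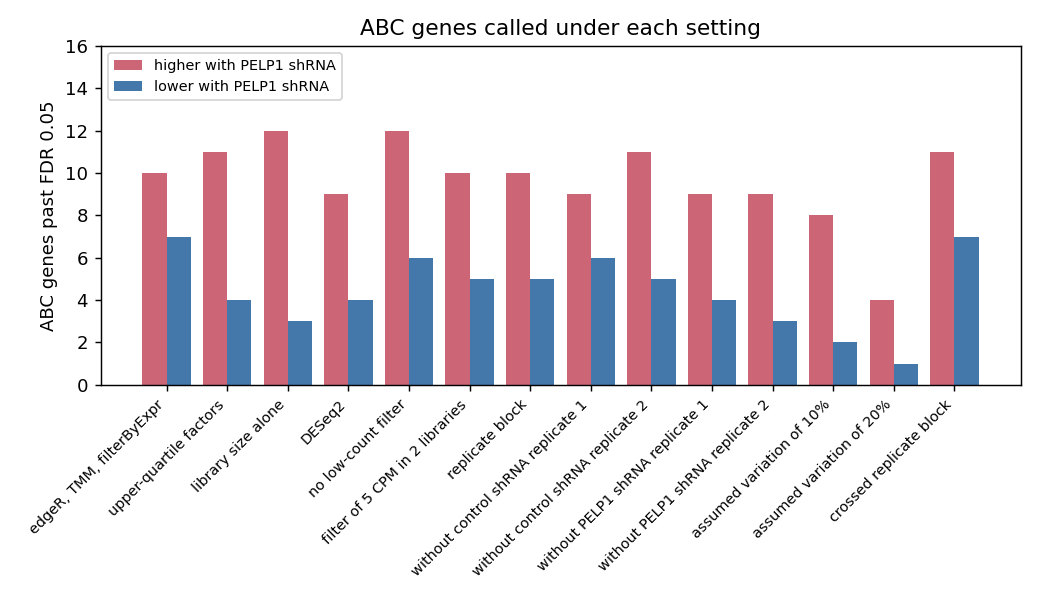
Number of ABC genes past an FDR of 0.05 (y axis) under each setting, red for higher and blue for lower with the PELP1 shRNA. Calls of higher genes ranged from 4 to 12 and calls of lower genes from 1 to 7, the lowest of both with an assumed biological variation of 20%. Over all genes tested, the share called ranged from 8.85% in that setting to 64.5% with the filter of 5 CPM.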

How the data were processed

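RNA was sequenced as 50 bp single-end reads from TruSeq total RNA libraries, per the labels' protocols. Per the submitters' processing notes, TopHat2 2.0.8b and hg19 were used for alignment and HTSeq for counting. The files deposited by the authors hold unnormalised read counts, 1 row per gene symbol. Rows that name no gene held 38.8% to 40.5% of each file and were left out. For HTSeq, neither strand setting nor annotation is stated there.

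Counts were fitted over all genes with edgeR 4.0.16 in R 4.3.3 (quasi-likelihood F test, robust, TMM factors 0.967 to 1.03, filterByExpr, 14972 genes, two-sided), with Benjamini-Hochberg adjustment over all genes tested, and with glmTreat against a 1.5-fold change. The estimated biological coefficient of variation was 2.99%. SE is the absolute log2 fold change over the square root of F. The fit was tested on simulated data. Alternatives included DESeq2 1.42.0, other scaling, filters and assumed variation. Exonic lengths and hg19 coordinates came from GENCODE, and RPKM is CPM per kilobase of exon. Counting intervals are exact binomial intervals at 95% and cover counting error only. Replicate pairs differed by more than counting noise (chi-square per degree of freedom 2.469 and 2.374).

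The members and lists were chosen with earlier results of these data known. Values in every library are given for members past the 1.5-fold test, for called members of at least 5 CPM, and for ABCA1, ABCG1, ABCB1, ABCC1, ABCG2 and ABCE1 in any case, with up to 4 called genes of at least 5 CPM from each other list and 7 regulators. The partner genes PELO, HBS1L, GSPT1, ETF1, SLC9A3R1 and LMBRD1 are named in addition. Some members and other listed genes are counted but not reported by name here.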

Additional observations from a re-analysis of the deposited data

How the results depend on the processing

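The PELP1 call and those of ABCG1, ABCA7, ABCB9 and ABCA13 held in every alternative in which the gene was tested. Of 10 higher and 7 lower ABC calls, 8 and 3 held in all alternatives other than assumed variation. The duplicates may be technical, so larger variation was also assumed. With a biological variation of 10%, 10 of 30 tested ABC genes were called (2 lower), against 29.1% of all genes tested. With 20%, 5 were called (4 higher, 1 lower), against 8.85% of all genes tested. The calls of ABCA5, ABCB1, ABCB10, ABCC4, ABCD4, ABCE1 and ABCF1 were lost at both. Those of ABCA1, ABCA2, ABCB6, ABCC1 and ABCC3 were lost at 20% alone. Lower calls numbered 4 with upper-quartile factors, 3 with library size alone and 4 with DESeq2, and 3 to 6 when 1 library was left out (3 without PELP1 shRNA replicate 2 and 4 without PELP1 shRNA replicate 1); fewer samples give less power. Over all genes, lower calls numbered 4424 with TMM, 3694 with upper-quartile factors, 3305 with library size alone and 3385 with DESeq2. The filter of 5 CPM drops ABCG1 and ABCA13. It left 3 of 23 tested ABC genes past the 1.5-fold test, and 935 of all 11497 genes tested. Signs turned, with the gene uncalled, for ABCA3 (0.000124), ABCB8 (0.0846), ABCC5 (0.0869), ABCD3 (0.0201) and ABCF2 (0.0437) with library size alone, and for ABCB8 (0.0475), ABCC5 (0.0499) and ABCF2 (0.00675) with upper-quartile factors. The same held for ABCB8 and ABCC5 without a filter (0.0017 and 0.00417) and with the 5 CPM filter (0.0104 and 0.0128). With 1 library left out, uncalled values crossed 0 for ABCB8 (−0.0974 to 0.0947), ABCC5 (−0.0318 to 0.0258), ABCB4 (−0.0547 to 0.22), ABCC2 (−0.168 to 0.573) and ABCC9 (−0.303 to 0.816). The median log2 fold change of all genes was 0.0922 with library size alone and 0.0553 with upper-quartile factors, against 0.00222 with TMM. The cause of the sign changes was not tested.

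The replicate block called 15 ABC genes, 10 higher and 5 lower, in place of 17. Over all genes tested it called 54.5%, in place of 58.1%. Over genes of at least 5 CPM, deviations of same-numbered libraries from their group means were weakly and negatively correlated (−0.158). Single genes could go the other way, as GFAP did. The crossed block, chosen after seeing the data, called 18 ABC genes and 62% of all genes tested. Differences in genes under 1 CPM are limited by counts.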
